A study of Rattus norvegicus with 17 samples.

Results

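Genes that cut, protect or crosslink the extracellular matrix were examined in fetal rat gubernacula exposed to insulin-like 3 (Insl3), the testicular peptide hormone that drives growth of this ligament before the testis descends. The set holds 33 genes chosen by name from the main families of matrix enzymes, together with every probe set that the array annotation assigns to a single gene of the set. The genes were chosen with earlier results of these data known. Counts and shares given below therefore describe the set and do not test it. A probe set is a group of short array probes that together report 1 transcript. Of the 33 genes, 32 had a probe set, and together they had 50 of the 31099 probe sets on the array. The annotation used here lists no probe set for Adam12. A further 3 genes, Mmp3, Mmp9 and Mmp13, were too dim to be tested, which left 42 probe sets of 29 genes.

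All tissue came from male Long Evans rat fetuses taken at gestational day 17. The label for each replicate describes a pair of gubernaculum bulbs cultured together on a filter at the surface of serum-containing medium, first for 24 h without hormone and then for 24 h more without hormone (control, 6 arrays), with 10 nM Insl3 (3 arrays) or with 100 nM Insl3 (6 arrays). Another 2 arrays at 10 nM, replicates 4 and 5, were set aside by the submitters as outliers and enter no comparison here. The labels name no genetic change, the controls saw the same medium and the same hours in culture, and the replicates are labelled as biological. The bulbs were cut free of the cord and the abdominal wall, and each array reads the RNA of all their cells together, so that fewer cells of a type and less RNA per cell cannot be told apart. Levels are given on the log2 scale of the deposited values, in which 1 unit is a doubling.

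The tissue labels were checked against marker genes. In the controls the mesenchymal genes Col1a1, Col3a1 and Pdgfra averaged 14.90, 15.81 and 13.30, and the skeletal muscle genes Myog and Acta1 averaged 14.85 and 14.80. Of the 6 cartilage and bone genes with a probe set, Col2a1, Acan, Bglap, Ibsp and Alpl had group means of 2.11 to 2.15, at or next to the lowest value of the arrays. Comp, the other of them, averaged 3.22 in the controls, 4.04 at 10 nM and 3.41 at 100 nM, and rose at 10 nM (limma, adjusted p = 0.00913). Red cell, white cell and endothelial genes were also present and differed between the groups, with values given below. The annotation used here lists no probe set for Rxfp2, the Insl3 receptor.

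Extracellular matrix is remodelled by several classes of protease that work together. Matrix metalloproteases (MMPs) and the related ADAM and ADAMTS enzymes need zinc and act at the cell surface or in the matrix, plasminogen activators make the serine protease plasmin, and cathepsins cut matrix proteins mainly in acidic compartments. Tissue inhibitors of metalloproteases (Timps), the membrane-anchored inhibitor Reck and several serpins hold these enzymes in check, while procollagen processing enzymes and lysyl oxidases build and crosslink new collagen fibrils. The fetal gubernaculum is known for an expanding bulb rich in hyaluronan and proteoglycans, the substrates of several ADAMTS enzymes.

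After 100 nM Insl3, 8 of the 29 genes rose and 1 fell, counted by the brightest probe set of each. Mmp11, the plasminogen activator Plat, the collagenolytic cathepsin Ctsk, the metalloprotease inhibitors Timp1 and Reck, the serpin Serpinf1 and the procollagen processing genes Pcolce and Bmp1 were those that rose, by 1.24-fold to 1.85-fold. The aggrecanase Adamts5 fell on both of its probe sets, and 1 of 4 probe sets of Timp3 fell. In all, 11 of the 42 tested probe sets passed limma's test at an adjusted p of 0.05, 8 higher and 3 lower, which is 26.2% of them. Over all 18938 probe sets tested on the arrays 10.9% passed, 6.51% higher and 4.39% lower. The median log2 change was 0.12 over the 42 probe sets and -0.0003 over all those tested. The 6 control and 6 hormone-treated values did not overlap for 6 of the 42 probe sets, against 4.96% of all tested. Of the 11 calls, 9 held in each of the 15 fits without 1 array, and 1, that of Adamts5 1394483_at, also held in all 13 other alternatives.

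After 10 nM Insl3, 16 of the 42 probe sets passed, 10 higher and 6 lower, or 38.1%, against 10.6% of all tested, 4.88% higher and 5.70% lower. Mmp11, Adamts4, Plat, Ctsk, Timp1, Reck, Serpinf1, Pcolce, Bmp1 and 1 of the 2 probe sets of Mmp14 rose. Adamts5 fell on both probe sets, Timp3 on 3 of 4 and Lox on 1 of 2. The median log2 change was 0.26 over the 42 probe sets, against 0.03 over all tested. Values at 10 nM lay apart from the controls for 16 of the 42 probe sets, a pattern shown by 17.0% of all tested with 3 arrays against 6. The count of 16 fell to 9 without 10 nM replicate 2 and to 6 without 10 nM replicate 3. Of the 16 calls, 6 held in each of the 15 fits without 1 array, and 1, that of Timp3 1372926_at, also held in all 12 other alternatives. The alternatives that ended most calls were a fit within replicates 1, 2 and 6, a fit with the 2 set-aside arrays included and, at 100 nM, a fit with the mean of erythroid marker genes as a covariate. Both comparisons use the same 6 control arrays, so the results at the 2 doses are not independent of each other and are given side by side.

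**Figure D1:**
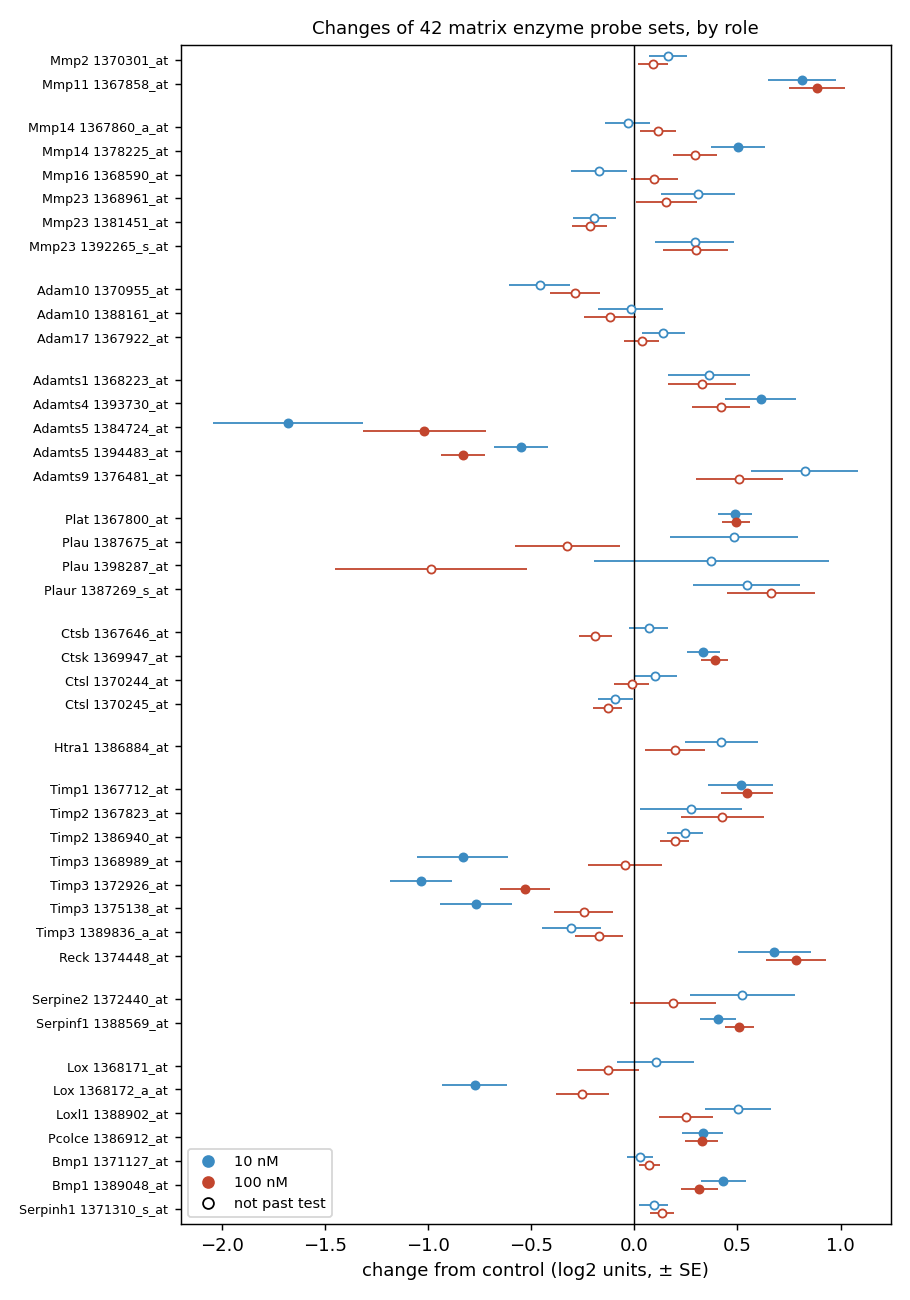
Log2 change against control for the 42 tested probe sets of matrix proteases, inhibitors and crosslinking enzymes at 10 nM and 100 nM Insl3, grouped by role, with bars of 1 SE from limma; the vertical line at 0 marks no change and filled symbols mark probe sets that passed the test. Most filled symbols lie to the right of 0, and those to the left belong to Adamts5, Timp3 and Lox.

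Promoters are shown for 4 genes on which the results below turn, 3 that rose (Mmp11, Reck and Timp1) and 1 for which probe sets fell (Timp3). Each is the 250 bases before the RefSeq transcription start in the rat assembly GRCr8, written 5′ to 3′ on the strand of the gene. Capitals mark each match to the GC box GGGCGG, on either strand, and to TGACG, the core of the cyclic AMP response element, on either strand. The Insl3 receptor is known to signal through cyclic AMP. Promoters of Adamts5, Bmp1, Ctsb, Lox, Mmp14, Mmp16, Mmp2, Mmp9 and Plat had no entry in the table.
Mmp11, chr20:12730034-12730283, plus strand: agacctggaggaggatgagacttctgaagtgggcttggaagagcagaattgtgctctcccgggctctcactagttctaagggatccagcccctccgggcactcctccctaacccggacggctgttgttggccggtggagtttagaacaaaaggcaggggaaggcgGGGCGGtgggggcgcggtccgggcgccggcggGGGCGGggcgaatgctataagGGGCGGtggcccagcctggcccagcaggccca
Reck, chr5:62898467-62898716, plus strand: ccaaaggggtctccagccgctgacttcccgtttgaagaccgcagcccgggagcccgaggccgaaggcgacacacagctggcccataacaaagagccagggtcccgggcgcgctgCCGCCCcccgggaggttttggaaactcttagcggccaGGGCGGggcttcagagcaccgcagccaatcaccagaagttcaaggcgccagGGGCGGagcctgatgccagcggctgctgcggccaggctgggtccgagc
Timp1, chrX:3771123-3771372, minus strand: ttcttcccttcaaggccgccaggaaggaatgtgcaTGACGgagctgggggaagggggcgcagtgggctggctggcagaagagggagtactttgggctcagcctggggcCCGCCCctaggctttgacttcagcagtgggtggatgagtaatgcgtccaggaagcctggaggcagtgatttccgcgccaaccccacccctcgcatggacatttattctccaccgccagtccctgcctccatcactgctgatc
Timp3, chr7:19459559-19459808, minus strand: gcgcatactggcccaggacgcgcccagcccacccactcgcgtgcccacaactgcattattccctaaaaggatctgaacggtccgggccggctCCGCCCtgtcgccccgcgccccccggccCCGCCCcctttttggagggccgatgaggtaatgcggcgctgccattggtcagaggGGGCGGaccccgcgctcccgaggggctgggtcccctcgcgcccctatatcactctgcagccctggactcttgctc

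The Mmp11, Reck and Timp3 windows each held 3 GC boxes and no TGACG. The Timp1 window held 1 GC box and 1 TGACG. Across the 24 genes of the set with a promoter entry, 16 (66.7%) had a GC box, against 30.5% of 33469 rat promoters of the same length. TGACG was found in 7 of the 24 (29.2%), those of Adam10, Adamts1, Ctsl, Htra1, Plau, Timp1 and Timp2, against 18.2% of all promoters. The full palindromic element TGACGTCA, which contains TGACG, was found in 0 of the 24 and in 1.59% of all promoters. The AP-1 site TGANTCA was found in 3 of the 24 (12.5%), those of Mmp3, Mmp13 and Plaur, against 6.34%. The 33469 promoters are all those of the RefSeq source and are not limited to genes on the array or to genes tested here. The shares are thus of unlike sets and do not test the members. These are matches of letters in a short window and say nothing of whether a factor binds there.

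Among the secreted metalloproteases, Mmp11 (stromelysin-3), an MMP of mesenchymal cells that is activated inside the cell by furin, changed most clearly. Its level (1367858_at) ran from 9.45 to 10.00 in the controls, with a median of 9.59. At 10 nM the 3 values were 10.56, 10.59 and 10.34, and at 100 nM they ran from 10.01 to 10.86, with a median of 10.65. Every Insl3 array was above every control, although 100 nM replicate 1 and control replicate 1 nearly touched. Mmp11 rose by 0.89 ± 0.14 (SE) at 100 nM, a 1.85-fold change (limma, adjusted p = 0.0011), and by 0.81 ± 0.17 at 10 nM (adjusted p = 0.0062). Both calls held in each of the 15 fits without 1 array. The 100 nM call was lost with the erythroid covariate (0.82, adjusted p = 0.0624) and within replicates 1, 2 and 6 (0.71, adjusted p = 0.211), and the 10 nM call was lost with the set-aside arrays included (0.36, adjusted p = 0.354) and within replicates 1, 2 and 6 (0.74, adjusted p = 0.261).

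Mmp2, gelatinase A, averaged 13.16 ± 0.15 (SD, n = 6) in the controls, 13.32 ± 0.03 (n = 3) at 10 nM and 13.25 ± 0.12 (n = 6) at 100 nM. Its change at 100 nM was 0.09, with a 95% confidence interval of -0.07 to 0.25. A second Mmp2 probe set (1369825_at) was at 2.11 in all 15 arrays. The stromelysin Mmp3 and the collagenase Mmp13 were listed at 2.11 in all 15 arrays as well. The gelatinase Mmp9 reached no more than 3.09 on its brighter probe set, in control replicate 3. For Mmp3, Mmp9 and Mmp13 no change could be measured, and a low signal on this platform does not show that a transcript is missing.

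Of the membrane-bound MMPs, Mmp14 (MT1-MMP), which activates pro-Mmp2 at the cell surface, gave different answers on its probe sets. On 1378225_at the controls ran from 10.30 to 10.89, with a median of 10.52. The 10 nM values there were 10.86, 11.29 and 10.94, and the 100 nM values ran from 10.68 to 11.07, with a median of 10.78. The 10 nM values overlapped the highest control, replicate 1. This probe set rose by 0.50 ± 0.13 at 10 nM (limma, adjusted p = 0.0239), a call lost without 10 nM replicate 2 (adjusted p = 0.148) or replicate 3 (adjusted p = 0.0606), and with the set-aside arrays included its sign turned (-0.19). At 100 nM its change was 0.30 (adjusted p = 0.0936). The other probe set, 1367860_a_at, averaged 13.73 ± 0.16 in the controls, 13.70 ± 0.20 at 10 nM and 13.84 ± 0.13 at 100 nM, and its interval at 10 nM was -0.27 to 0.20.

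Mmp16 (MT3-MMP) and Mmp23 did not pass the test at either dose. Mmp16 averaged 8.85 ± 0.25 in the controls, 8.68 ± 0.10 at 10 nM and 8.95 ± 0.17 at 100 nM. Of the 3 Mmp23 probe sets, 1368961_at and 1392265_s_at changed by 0.16 and 0.30 at 100 nM and by 0.31 and 0.29 at 10 nM. The third, 1381451_at, changed by -0.22 at 100 nM and -0.19 at 10 nM. Its group means were 2.85 to 3.07, close to the lowest value of the arrays. The sheddases Adam10 and Adam17, which release the outer parts of membrane proteins, also did not pass. Adam17 averaged 10.39 ± 0.11, 10.53 ± 0.19 and 10.42 ± 0.16 in the control, 10 nM and 100 nM groups. The brighter Adam10 probe set averaged 8.07 ± 0.26, 8.06 ± 0.11 and 7.96 ± 0.24 in the same groups.

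The ADAMTS enzymes, which cut proteoglycans such as aggrecan and versican, did not move as a block. Adamts5 was lower after Insl3 on both probe sets. On 1394483_at the controls ran from 7.83 to 8.32, with a median of 7.89. The 10 nM values were 7.33, 7.59 and 7.42, and the 100 nM values ran from 6.90 to 7.34, with a median of 7.20. No Insl3 array reached the lowest control. This probe set fell by 0.83 ± 0.11 at 100 nM, a 1.78-fold change (limma, adjusted p = 0.000265), and that call held in all 15 fits without 1 array. It fell by 0.55 ± 0.13 at 10 nM (adjusted p = 0.0149), a call lost without 10 nM replicate 1 (adjusted p = 0.0805) or replicate 3 (adjusted p = 0.0712) and within replicates 1, 2 and 6 (adjusted p = 0.103).

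On the other Adamts5 probe set, 1384724_at, the controls ran from 7.57 to 8.32 with a median of 7.84. At 10 nM the values were 5.98, 6.41 and 6.19, and the 100 nM values ran from 5.57 to 7.83 with a median of 6.85. The 10 nM arrays lay far below the controls, whereas 100 nM replicate 3 lay among them. The probe set fell by 1.68 ± 0.36 at 10 nM, a 3.20-fold change (limma, adjusted p = 0.00855), and by 1.02 ± 0.30 at 100 nM (adjusted p = 0.0418). The call at 100 nM was lost in 12 of the 15 fits that each left out an array (highest adjusted p 0.0884) and held without control replicate 6 or without 100 nM replicate 3 or 5. With the erythroid covariate the change at 100 nM was -0.62 (adjusted p = 0.526) and with the leukocyte covariate -0.51 (adjusted p = 0.368). The call at 10 nM held in all 15 fits and was lost within replicates 1, 2 and 6 (adjusted p = 0.115).

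Adamts4, another aggrecanase, went the other way. Its controls ran from 7.50 to 7.93, with a median of 7.80. Under 10 nM Insl3 it was at 8.11, 8.58 and 8.38, and the 100 nM values ran from 7.85 to 8.63, with a median of 8.08. The 10 nM arrays were all above the controls, and the 100 nM arrays overlapped them. Adamts4 rose by 0.61 ± 0.17 at 10 nM (limma, adjusted p = 0.0351), while its change at 100 nM was 0.42 ± 0.14 (adjusted p = 0.071). The call at 10 nM was lost without control replicate 1, 2 or 3 (adjusted p = 0.0623, 0.0595 and 0.0543) and without 10 nM replicate 2 or 3 (adjusted p = 0.172 and 0.123), and with the set-aside arrays included (adjusted p = 0.134). Adamts1 and Adamts9, both versican-cutting enzymes, did not pass. Adamts1 averaged 10.86 ± 0.14, 11.22 ± 0.21 and 11.19 ± 0.42, and Adamts9 averaged 7.90 ± 0.47, 8.73 ± 0.43 and 8.41 ± 0.28, in the control, 10 nM and 100 nM groups. The largest change among these uncalled values was that of Adamts9 at 10 nM, 0.82 ± 0.26 (adjusted p = 0.0597).

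In the plasminogen system, Plat (tissue plasminogen activator) rose at both doses. Its controls ran from 10.29 to 10.65, with a median of 10.45. The 3 arrays at 10 nM read 10.84, 11.10 and 10.87, and the 100 nM values ran from 10.86 to 11.08, with a median of 10.93. All 9 Insl3 arrays were above all 6 controls. The change was 0.49 ± 0.07 at 100 nM (1.41-fold, limma, adjusted p = 0.000495) and 0.49 ± 0.08 at 10 nM (1.40-fold, adjusted p = 0.00212), and both calls held in each of the 15 fits without 1 array. With the erythroid covariate the call at 100 nM was lost (0.39, adjusted p = 0.0612), with the set-aside arrays that at 10 nM (adjusted p = 0.133), and within replicates 1, 2 and 6 both (adjusted p = 0.129 and 0.134).

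Plau (urokinase), the other plasminogen activator, passed at neither dose. On 1387675_at it averaged 8.26 ± 0.19 in the controls, 8.75 ± 0.77 at 10 nM and 7.94 ± 0.51 at 100 nM. Replicate 2 stood apart at 10 nM, at 9.61 against 8.13 and 8.50 in replicates 1 and 3. Its second probe set (1398287_at) averaged 5.37 ± 0.72, 5.74 ± 0.80 and 4.38 ± 1.01. Plaur, the urokinase receptor, averaged 4.77 ± 0.21 in the controls, 5.32 ± 0.53 at 10 nM and 5.43 ± 0.46 at 100 nM. Its change of 0.66 ± 0.21 at 100 nM did not pass (adjusted p = 0.0615), and its second probe set (1371286_at) was at 2.11 in all 15 arrays.

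Of the cathepsins, Ctsk (cathepsin K), which cuts fibrillar collagen, rose. It averaged 11.73 ± 0.05 in the controls, 12.07 ± 0.13 at 10 nM and 12.12 ± 0.13 at 100 nM, and no Insl3 array fell to the level of a control. The change was 0.39 ± 0.07 at 100 nM (1.31-fold, limma, adjusted p = 0.00224). At 10 nM it was 0.34 ± 0.08 (adjusted p = 0.0156), and that call was lost without 10 nM replicate 1 (adjusted p = 0.0845) or replicate 3 (adjusted p = 0.0931). With the set-aside arrays included the change at 10 nM was -0.033 and the 100 nM call was lost (adjusted p = 0.198), and within replicates 1, 2 and 6 neither passed (adjusted p = 0.216 at 100 nM and 0.338 at 10 nM). Ctsk is also a marker of osteoclasts. Of 7 other osteoclast genes, 3 had a probe set. Calcr had group means of 2.11, and the 2 genes tested, Acp5 and Nfatc1, did not pass at either dose. The 10 nM values of Nfatc1 lay just above all controls (0.27, limma, adjusted p = 0.0625). Whether osteoclasts carried the Ctsk signal was not tested.

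Ctsb and Ctsl, general lysosomal cathepsins, did not pass. Ctsb averaged 14.01 ± 0.15, 14.08 ± 0.13 and 13.82 ± 0.11 in the control, 10 nM and 100 nM groups. The brighter Ctsl probe set averaged 12.40 ± 0.09, 12.51 ± 0.20 and 12.39 ± 0.16, with an interval for the change at 100 nM of -0.19 to 0.17. Htra1, a secreted serine protease that cuts fibronectin and proteoglycans, averaged 8.45 ± 0.19, 8.87 ± 0.21 and 8.65 ± 0.34. The 3 Htra1 values at 10 nM lay above all controls, but the change of 0.42 ± 0.18 did not pass (limma, adjusted p = 0.165).

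The inhibitors of metalloproteases divided by gene. Reck, a membrane-anchored inhibitor of several MMPs, ran from 11.77 to 12.59 in the controls, with a median of 12.26. Its 10 nM arrays read 12.94, 12.87 and 12.92, and the 100 nM values ran from 12.51 to 13.29, with a median of 13.10. The single overlap was 100 nM replicate 1, which lay below control replicate 2. Reck rose by 0.78 ± 0.14 at 100 nM (1.72-fold, limma, adjusted p = 0.00402), a call that held in all 15 fits without 1 array. It rose by 0.68 ± 0.18 at 10 nM (adjusted p = 0.0245), a call lost without 10 nM replicate 1, 2 or 3 (adjusted p = 0.0866, 0.070 and 0.094). At 100 nM the adjusted p was 0.0503 with the erythroid covariate, 0.0529 with the leukocyte covariate and 0.283 within replicates 1, 2 and 6, and at 10 nM it was 0.322 on all 17 arrays and 0.394 within replicates 1, 2 and 6.

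Timp1, a soluble inhibitor of most MMPs, ran from 11.18 to 11.92 in the controls, with a median of 11.47. The 10 nM values were 11.87, 12.16 and 11.89, and the 100 nM values ran from 11.74 to 12.32, with a median of 11.98. Control replicate 6 was the highest control and lay within both hormone groups. Timp1 rose by 0.55 ± 0.13 at 100 nM (1.46-fold, limma, adjusted p = 0.0147) and by 0.51 ± 0.16 at 10 nM (adjusted p = 0.0489). The call at 100 nM held in all 15 fits without 1 array. The call at 10 nM was lost in 12 of them (adjusted p up to 0.214) and held without control replicate 6 or without 100 nM replicate 1 or 3. It was also lost in 8 of the 12 other alternatives. Among these were no filter (adjusted p = 0.0993), renewed quantile normalization (0.058), arrays centred on their median (0.057) and only the groups compared (0.0834). With the erythroid covariate the change at 100 nM was 0.27 (adjusted p = 0.472), and it did not pass within replicates 1, 2 and 6 (0.63, adjusted p = 0.171) or within replicates 3, 4 and 5 (0.46, adjusted p = 0.059).

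Timp3, which binds to the matrix and also inhibits ADAM and ADAMTS enzymes, fell on some of its probe sets and did not pass on others. On 1372926_at the controls ran from 9.33 to 9.70, with a median of 9.43. At 10 nM the values were 8.64, 8.48 and 8.25, and the 100 nM values ran from 8.48 to 9.17, with a median of 9.07. All Insl3 arrays were below all controls. This probe set fell by 1.03 ± 0.15 at 10 nM (2.05-fold, limma, adjusted p = 0.000786) and by 0.53 ± 0.12 at 100 nM (1.44-fold, adjusted p = 0.0141), and both calls held in each of the 15 fits without 1 array. The call at 100 nM was lost with the erythroid covariate (-0.47, adjusted p = 0.216), within replicates 1, 2 and 6 (-0.48, adjusted p = 0.140) and within replicates 3, 4 and 5 (-0.58, adjusted p = 0.154).

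The brightest Timp3 probe set, 1375138_at, ran from 12.57 to 13.02 in the controls, with a median of 12.80. Its 10 nM values were 12.14, 12.16 and 11.81, and its 100 nM values ran from 12.01 to 12.92, with a median of 12.64. The 10 nM arrays lay below the controls, and the 100 nM arrays overlapped them. It fell by 0.77 ± 0.18 at 10 nM (limma, adjusted p = 0.0118, lost without 10 nM replicate 3 at 0.0836) and its change at 100 nM was -0.25 (adjusted p = 0.303). The dim probe set 1368989_at ran from 4.20 to 5.49 in the controls, with a median of 4.83. It was at 4.25, 3.86 and 3.81 at 10 nM and between 4.52 and 4.94, with a median of 4.76, at 100 nM, so that the 10 nM arrays were low but overlapped the lowest controls. It fell by 0.83 ± 0.22 at 10 nM (adjusted p = 0.0271, lost without control replicate 1 at 0.0501 and without 10 nM replicate 2 or 3 at 0.109 and 0.130), and its change at 100 nM was -0.05. The fourth, 1389836_a_at, passed at neither dose, with changes of -0.30 at 10 nM and -0.17 at 100 nM.

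Timp2, which inhibits MMPs and also helps Mmp14 to activate pro-Mmp2, did not pass. Its brighter probe set averaged 12.58 ± 0.15, 12.83 ± 0.01 and 12.78 ± 0.11 in the control, 10 nM and 100 nM groups, with changes of 0.20 at 100 nM (limma, adjusted p = 0.0988) and 0.24 at 10 nM (adjusted p = 0.0987). The dimmer one averaged 6.71 ± 0.32, 6.99 ± 0.40 and 7.14 ± 0.40.

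**Figure D2:**
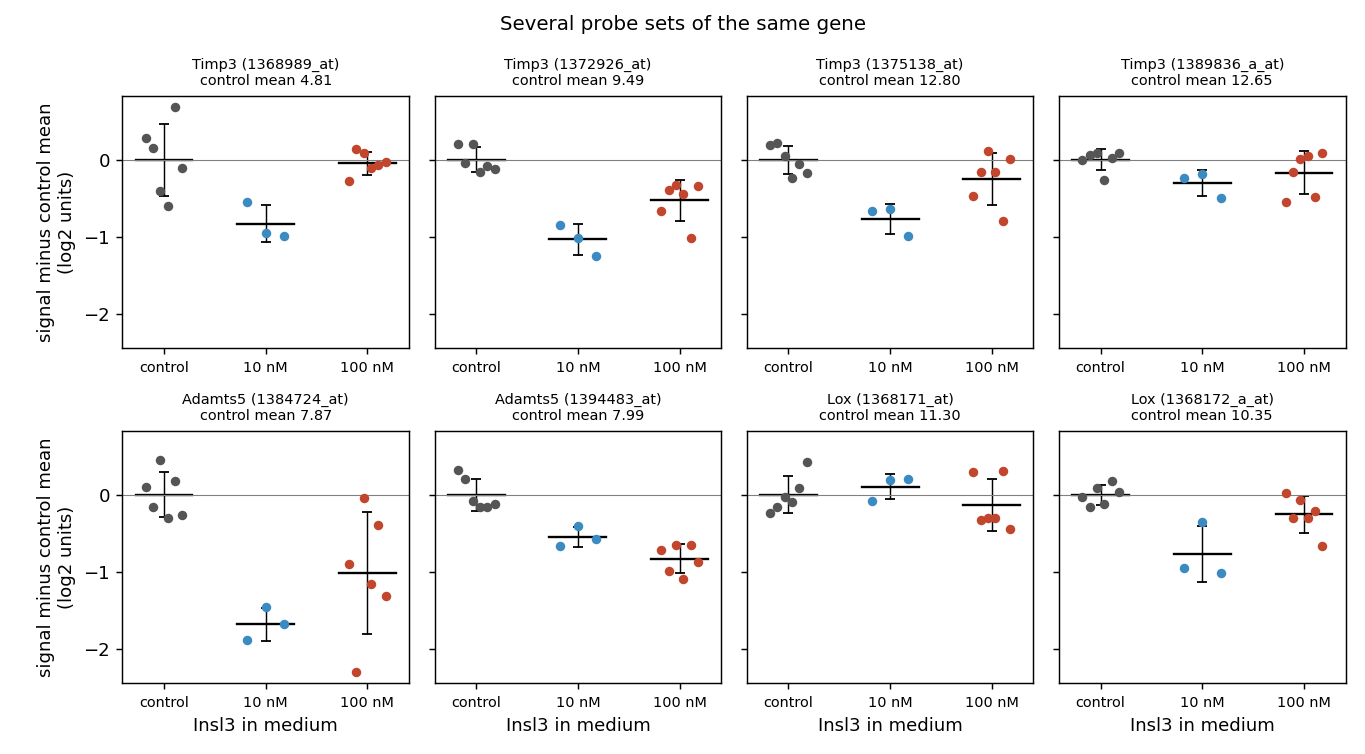
Values of each array minus the control mean (log2) for 3 genes with several probe sets of which at least 1 fell, Timp3 (4 probe sets), Adamts5 (2) and Lox (2), by group; each point is 1 array, with bars for the mean and SD. The 10 nM points lie below the controls for the Timp3 probe sets 1372926_at and 1375138_at, for both Adamts5 probe sets and for Lox 1368172_a_at, while those of Lox 1368171_at lie among them.

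Serpinf1 (pigment epithelium-derived factor), a collagen-binding serpin that is not known to inhibit proteases, was at 13.85 to 14.01 in the controls, with a median of 13.98. Under 10 nM Insl3 it was at 14.41, 14.30 and 14.39, and the 100 nM values ran from 14.14 to 14.62, with a median of 14.51. All Insl3 arrays were above all controls. Serpinf1 rose by 0.51 ± 0.07 at 100 nM (1.42-fold, limma, adjusted p = 0.000535) and by 0.41 ± 0.09 at 10 nM (1.33-fold, adjusted p = 0.00799), and both calls held in each of the 15 fits without 1 array. Its 10 nM call was lost with the set-aside arrays included (adjusted p = 0.468), and both were lost within replicates 1, 2 and 6 (adjusted p = 0.160 at 100 nM and 0.232 at 10 nM). Serpine2 (protease nexin 1), which inhibits thrombin and plasminogen activators, did not pass and averaged 10.23 ± 0.33, 10.75 ± 0.45 and 10.42 ± 0.41 in the control, 10 nM and 100 nM groups.

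Among the collagen processing genes, Pcolce, a glycoprotein that enhances procollagen C-proteinase, and Bmp1, that proteinase itself, rose. Pcolce averaged 13.36 ± 0.15 in the controls, 13.69 ± 0.04 at 10 nM and 13.68 ± 0.14 at 100 nM. It rose by 0.33 ± 0.08 at 100 nM (1.25-fold, limma, adjusted p = 0.019), a call that held in all 15 fits without 1 array, and by 0.33 ± 0.10 at 10 nM (adjusted p = 0.0451). The call at 10 nM was lost in 11 of the 15 fits (adjusted p up to 0.148) and held without control replicate 6 or without 100 nM replicate 1, 5 or 6. At 100 nM the call was lost with the erythroid covariate (0.31, adjusted p = 0.218), with the set-aside arrays included (adjusted p = 0.228) and within each set of 3 replicates (0.23 and 0.42, adjusted p = 0.351 and 0.0881). The set-aside arrays also ended the call at 10 nM (adjusted p = 0.838). That call was lost in 8 of the 12 other alternatives, among them no filter (adjusted p = 0.0716) and renewed quantile normalization (0.069).

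Bmp1 (1389048_at) averaged 8.03 ± 0.14 in the controls, 8.46 ± 0.17 at 10 nM and 8.35 ± 0.16 at 100 nM. It rose by 0.43 ± 0.11 at 10 nM (1.35-fold, limma, adjusted p = 0.0201), a call lost without 10 nM replicate 2 (adjusted p = 0.0862) or replicate 3 (adjusted p = 0.124). It rose by 0.32 ± 0.09 at 100 nM (1.24-fold, adjusted p = 0.0364), a call lost in 8 of the 15 fits (adjusted p up to 0.0773), namely those without control replicate 3, 4 or 5 or without any of 100 nM replicates 2 to 6. Its change at 100 nM was 0.12 within replicates 1, 2 and 6 (adjusted p = 0.644), 0.51 within replicates 3, 4 and 5 (adjusted p = 0.0191) and 0.24 with the erythroid covariate (adjusted p = 0.396). With the set-aside arrays included the change at 10 nM was -0.15 and the 100 nM call was lost (adjusted p = 0.575). Its other probe set, 1371127_at, averaged 5.99 ± 0.03, 6.02 ± 0.00 and 6.06 ± 0.11 and did not pass.

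Lox, the lysyl oxidase that starts the crosslinking of collagen and elastin, differed between probe sets. On 1368172_a_at the controls ran from 10.19 to 10.53, with a median of 10.35. The 3 arrays at 10 nM read 9.40, 9.99 and 9.33, and the 100 nM values ran from 9.68 to 10.38, with a median of 10.10. The 10 nM arrays lay below all controls. This probe set fell by 0.77 ± 0.16 at 10 nM (1.71-fold, limma, adjusted p = 0.00584), which held in all 15 fits without 1 array and was lost within replicates 1, 2 and 6 (adjusted p = 0.327), and its change at 100 nM was -0.25 (adjusted p = 0.232). On 1368171_at the change at 10 nM was 0.10, with an interval of -0.29 to 0.50. Loxl1, a lysyl oxidase of elastic fibres, averaged 11.48 ± 0.16, 11.98 ± 0.24 and 11.73 ± 0.29 and did not pass (adjusted p = 0.0625 at 10 nM). Serpinh1 (Hsp47), the collagen chaperone, averaged 14.54 ± 0.12, 14.63 ± 0.01 and 14.67 ± 0.07 and did not pass.

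**Figure D3:**
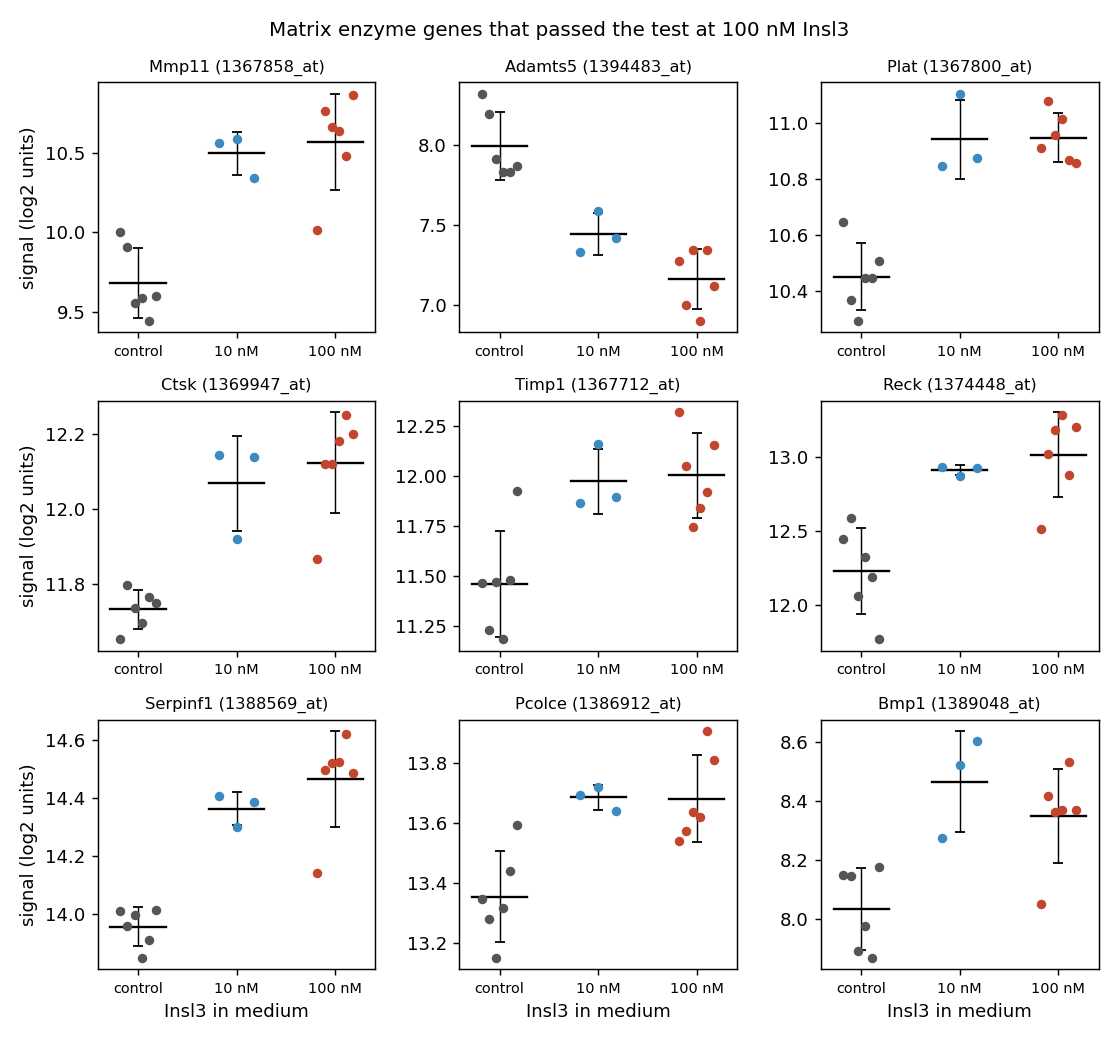
Log2 expression of the 9 genes that passed the test at 100 nM Insl3, each by its brightest probe set; each point is 1 array, in the control (6), 10 nM (3) and 100 nM (6) groups, and the bars give the mean and SD. For Mmp11, Adamts5, Plat, Ctsk and Serpinf1 the controls do not overlap either hormone group.

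The 2 doses were also compared directly. None of the 42 probe sets passed in limma's test of 100 nM against 10 nM (0 of 42, lowest adjusted p = 0.101), against 1.43% of all tested, and 8 had an unadjusted p under 0.05, against 12.3% of all tested. Mmp11 differed by 0.07 between the doses, with a 95% interval of -0.28 to 0.43, and Plat by 0.005, with an interval of -0.17 to 0.18. The widest gaps were those of Plau, -1.36 on 1398287_at (interval -2.58 to -0.14) and -0.81 on 1387675_at (interval -1.48 to -0.14), both lower at 100 nM. Timp3 1368989_at was 0.79 higher at 100 nM than at 10 nM (interval 0.31 to 1.26), and its values did not overlap, which was so for 1 of the 42 probe sets and 7.85% of all tested. Without 100 nM replicate 5, Timp3 1372926_at and 1375138_at passed (adjusted p = 0.012 and 0.0283), and without 10 nM replicate 2, Lox 1368172_a_at passed (adjusted p = 0.0466).

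Other matrix enzymes were read on the same arrays from a list of 117 genes outside the set, of which 76 were tested on 95 probe sets. By the brightest probe set of each gene, 20 rose and 3 fell at 100 nM, and 10 rose and 1 fell at 10 nM. Of the 95 probe sets, 29 passed at 100 nM (30.5%, against 10.9% of all tested) and 14 at 10 nM (14.7%, against 10.6%). This list was also chosen with earlier results of these data known, so these shares do not test it. The largest changes at 100 nM were those of A2m (alpha-2-macroglobulin, a broad protease inhibitor; 1.53), Prss23 (a secreted serine protease; 1.18), Adam22 (a member of the ADAM family without protease activity; 1.01), P3h4 (0.95), the membrane-linked metalloprotease Mmp17 (0.95) and P3h1 (0.74). At 10 nM they were those of Loxl2 (-1.41), Prss23 (1.37), A2m (1.26), Mmp17 (0.88), Mmp19 (0.76) and P3h1 (0.66).

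Genes that modify, fold or crosslink collagen were 11 of the 20 that rose at 100 nM. Of 18 such genes tested on 28 probe sets, 11 rose and 0 fell at 100 nM, and 6 rose and 1 fell at 10 nM, by the brightest probe set. Of the 28 probe sets, 16 passed at 100 nM (57.1%, against 10.9% of all tested) and 9 at 10 nM (32.1%, against 10.6%). These genes are part of the same list, so the shares describe them and do not test them. P3h4, Colgalt1 and Mia3 were among the genes with more than 1 of the 28 probe sets, so repeats of a gene enter these shares. P3h1, the prolyl 3-hydroxylase, averaged 9.81 ± 0.11 in the controls, 10.47 ± 0.02 at 10 nM and 10.55 ± 0.17 at 100 nM (limma, adjusted p = 0.000873 and 6.19e-05 against control). P3h4, a partner of lysyl hydroxylase, averaged 10.03 ± 0.10, 10.63 ± 0.11 and 10.98 ± 0.13 on its brightest probe set, 1385292_at (adjusted p = 0.000788 and 1.66e-06). Its other probe sets differed at 10 nM. On 1393779_x_at the values (10.23, 10.42 and 10.35) lay above the controls (9.70 to 10.04). Those of 1369805_at (9.13, 9.01 and 9.14) lay within the controls (8.99 to 9.48). So did those of 1385291_a_at (9.55, 9.48 and 9.53, controls 8.95 to 9.98), and those of 1378012_at overlapped the controls. The lysyl hydroxylase Plod1 changed by 0.39 at 100 nM and 0.37 at 10 nM (adjusted p = 0.00156 and 0.00739), both of which passed. The prolyl 4-hydroxylase subunit P4ha1 rose by 0.55 at 100 nM (adjusted p = 0.000916), and its change at 10 nM was 0.30 (adjusted p = 0.077). Loxl2, a lysyl oxidase of basement membrane collagen, averaged 9.58 ± 0.12 in the controls, 8.16 ± 0.31 at 10 nM and 9.24 ± 0.41 at 100 nM. Loxl2 fell at 10 nM (adjusted p = 0.000775), did not pass at 100 nM (-0.33, adjusted p = 0.219), and was 1.08 higher at 100 nM than at 10 nM (adjusted p = 0.0244).

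**Figure D4:**
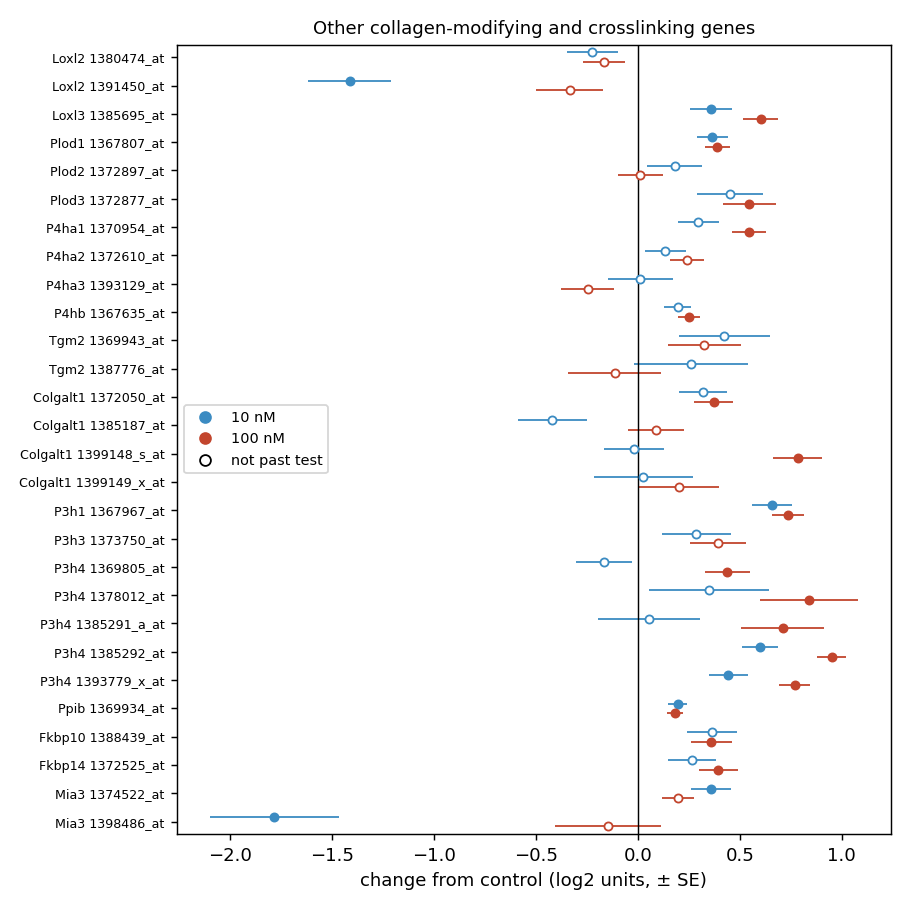
Log2 change against control for the 28 probe sets of 18 further collagen processing and crosslinking genes at 10 nM and 100 nM Insl3, with bars of 1 SE from limma; filled symbols passed the test. At 100 nM all filled symbols lie to the right of 0, and at 10 nM those to the left are Loxl2 and 1 probe set of Mia3.

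Markers of several other cell types moved with the hormone groups. Of 10 erythroid genes tested, 7 fell at 100 nM, by 2.45 (Epb42) to 3.15 (Slc4a1), and 0 passed at 10 nM. The log2 of the summed levels of the 10 was 16.53 to 16.97 in the controls, 16.47 to 16.81 at 10 nM and 15.48 to 16.72 at 100 nM. That sum is mostly Hbb, which averaged 16.60 in the controls and did not pass at 100 nM (-0.44, limma, adjusted p = 0.126). Of 5 granulocyte genes, 3 fell at 100 nM and 0 passed at 10 nM, with summed levels of 9.62 to 13.29, 11.07 to 12.48 and 5.91 to 9.85 in the same order. Of 16 macrophage and leukocyte genes, 4 fell at 100 nM and 0 passed at 10 nM, with summed levels of 14.09 to 14.48, 13.82 to 14.42 and 13.60 to 14.45. Rhag of the erythroid genes and Cd163 of the macrophage genes were at 2.11 throughout. With the mean of the erythroid genes as a covariate, all 11 probe sets called at 100 nM kept their direction and 3 passed (those of Adamts5 1394483_at, Ctsk and Serpinf1), while 3.44% of all probe sets passed. At 10 nM 14 of 16 passed in that fit. With the mean of the leukocyte genes as a covariate, 8 of the 11 and 15 of the 16 passed. The erythroid mean was itself lower at 100 nM, at 5.92 to 8.29 against 7.99 to 10.04 in the controls. That covariate is therefore tied to the dose, and the fit cannot separate blood cells from it. For the 11 probe sets the median size of change was 0.528 without this covariate and 0.497 with it. Their median SE was 0.107 without it and 0.156 with it. The part of blood cells in the results was not tested.

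Of 9 endothelial genes tested, Cldn5, Kdr and Ramp2 rose at both doses and 0 fell. Tek, Flt1 and Vwf were not tested and were at or next to the lowest value of the arrays in each group mean. Cldn5, a tight junction protein of vessels, averaged 9.51 ± 0.48 in the controls, 11.12 ± 0.75 at 10 nM and 12.35 ± 0.39 at 100 nM. Kdr, a receptor for vascular endothelial growth factor, rose by 0.94 at 100 nM and 0.78 at 10 nM, and Ramp2 by 0.61 and 0.48. The log2 of the summed endothelial levels was 11.69 to 12.23 in the controls, 12.51 to 13.00 at 10 nM and 13.01 to 13.54 at 100 nM, with no overlap between the controls and either hormone group. That sum weighs the brightest genes most, here Cldn5, Ramp2 and Kdr. The mean of the log2 levels was 6.83 to 7.15 in the controls, 7.14 to 7.37 at 10 nM and 7.20 to 7.76 at 100 nM. At 10 nM this mean overlapped the controls. Of the 10 endothelial probe sets tested, 8 had a positive change at each dose. Emcn (-0.63 at 10 nM and -0.42 at 100 nM) and Esam (-0.16 and -0.37) went down without passing. Of 12 mesenchymal genes, Thy1 rose and the matrix proteoglycan Dcn fell at both doses, Lum fell at 100 nM and Prrx1 fell at 10 nM. The summed levels of the mesenchymal genes were 17.71 to 17.87 in the controls, 17.72 to 17.75 at 10 nM and 17.68 to 17.81 at 100 nM. Of 8 smooth muscle genes, Mylk fell at both doses, Tagln fell at 10 nM and Myh11 rose at 10 nM by 2.65. Of 12 skeletal muscle genes Myod1 fell at 100 nM and 0 passed at 10 nM, and of 6 epithelial and mesothelial genes 0 passed at either dose. The part of these cells in the results was not tested.

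Deviations from the group mean were shared between control and 100 nM arrays within replicates 1, 2 and 6 and within replicates 3, 4 and 5 (mean r of 0.148 over 18 pairs of arrays), and ran opposite across these sets (mean r of -0.148 over 18 pairs, which the centring on group means makes its mirror). No label names a batch for this division, so these correlations describe it and are not a test of it. Within replicates 1, 2 and 6, all 11 probe sets called at 100 nM kept their direction and 1 passed, Adamts5 1394483_at, at a rate of 1.06% over all probe sets. Within replicates 3, 4 and 5, all 11 kept their direction and 7 passed, at a rate of 8.93% over all. The median size of the 11 changes was 0.53 over all arrays, 0.48 in replicates 1, 2 and 6 and 0.58 in replicates 3, 4 and 5. For 10 nM, which has 1 array in the second set, all 16 kept their direction within replicates 1, 2 and 6 and 1 passed, Timp3 1372926_at, at a rate of 2.95% over all. The 11 and 16 probe sets were called in fits that include these same arrays. Their kept direction is thus largely built in and is not an independent repeat.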

How the data were processed

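Expression values were deposited by the authors as log2 values per probe set made with GCRMA, per the submitters' processing notes. GCRMA corrects background by probe sequence, normalizes the arrays together and summarises probes. Its version and the base of the logarithm are not given in the sources used here; base 2 is what GCRMA writes, and the values run from 2.11 to 16.9. Genes were named from the platform annotation, of which 20832 probe sets carried 1 gene, 20764 of them matched to the RefSeq gene table of GRCr8, which also gave the promoters. Probe sets above 2.285, the 40th percentile, in at least 3 of 15 arrays were tested (18938). The 3 groups were fitted together with limma 3.58.1 in R 4.3.3 (lmFit, eBayes), 2-sided, with Benjamini-Hochberg adjustment over all 18938 and a threshold of 0.05. The code was tested on simulated data. Errors of changes are limma's moderated SEs. The number of arrays limits the precision, and the kept arrays correlated at 0.978 to 0.996.

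Counts of genes use, for each gene, its probe set of highest mean. The members, the lists of other enzymes and the markers were chosen with earlier results of these data known. All members are accounted for, with array values for called probe sets that changed by at least 0.5, and of the other enzymes the 6 with the largest change among those called are named. Loxl2 was named by that rule. Plod1 and P4ha1 were chosen after their values were seen. Alternatives varied the filter, the normalization, the arrays, the replicate block, the division of replicates and marker covariates.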

Additional observations from a re-analysis of the deposited data

Results flagged for a closer look

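Of 84 groups of 6 arrays checked for a single array far from the rest, 11 held one. Chance alone gives about 1 in 20 for independent values with a normal spread. The groups share their arrays, and some hold tied values, as Bmp1 1371127_at does at 6.018 in 100 nM arrays. The count is therefore not read as an excess. Control replicate 6 was the lowest control for Mmp16 (8.34, next 8.91) and the highest for Mmp23 1368961_at (9.97, next 9.49) and Loxl1 (11.81, next 11.44). Control replicate 3 was lowest for Adam10 1388161_at (7.60, next 8.10), and control replicate 4 was lowest for Timp3 1389836_a_at (12.39, next 12.66). At 100 nM, replicate 1 was lowest for Ctsk (11.87, next 12.12), Serpinf1 (14.14, next 14.49) and Bmp1 1389048_at (8.05, next 8.36). Replicate 3 at 100 nM was lowest for Mmp23 1381451_at (2.70) and Adam10 1370955_at (2.81) and highest for Bmp1 1371127_at (6.28).

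Among the other collagen processing genes, limma's direct test of 100 nM against 10 nM passed for 4 probe sets, all higher at 100 nM: Mia3 1398486_at by 1.64 (adjusted p = 0.0279), Loxl2 by 1.08 (adjusted p = 0.0244), Colgalt1 1399148_s_at by 0.80 (adjusted p = 0.0233) and P3h4 1369805_at by 0.61 (adjusted p = 0.0458).

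In the 2 set-aside 10 nM arrays, Mmp23 1392265_s_at was at 9.39 and 9.77, above the highest control at 9.28. Timp1 was at 12.12 and 12.36, above the highest control at 11.92. Mmp9, near the lowest value in the 15 other arrays, was at 6.31 and 7.80 on its 2 probe sets in set-aside replicate 4, against 2.32 and 3.09 in the highest control.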

How the results depend on the processing

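The count of called probe sets in the set was 11 at 100 nM, 16 at 10 nM and 0 between doses. With the 2 set-aside arrays included it was 7 at 100 nM and 8 at 10 nM, and within replicates 1, 2 and 6 it was 1 at each dose. With the erythroid mean as a covariate it was 3 at 100 nM. Leaving out 1 array at a time gave 9 to 12 at 100 nM, 6 to 20 at 10 nM and 0 to 2 between doses. With the set-aside arrays included, 3 changes at 10 nM turned negative: Mmp14 1378225_at (-0.19), Ctsk (-0.033) and Bmp1 1389048_at (-0.15). The cause of these shifts was not tested. With the replicate number as a block the counts were 10, 11 and 0. Same-numbered arrays deviated together in 6 of 12 pairs at r above 0.1 (-0.07 to 0.20), so the numbers were not taken as pairs. The other alternatives left the counts within 1.5 times. Signals near 2.11 limit what can be measured for Mmp3, Mmp9 and Mmp13.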

Other observations

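The set-aside 10 nM arrays, replicates 4 and 5, gave lower signals than the 15 other arrays for several matrix proteases with high values elsewhere. Mmp2 was at 12.41 and 12.02, against 12.98 to 13.46 over the other arrays, and Mmp14 1367860_a_at was at 12.28 and 12.55, against 13.53 to 13.97. Their yields of labelled cRNA were 25.66 and 33.68 µg. In replicate 4, where Mmp9 was high, the granulocyte genes Lcn2, S100a8, S100a9, Prg2 and Camp were at 8.83, 8.36, 8.77, 7.34 and 2.78, and in replicate 5, where Mmp9 was at 2.11, they were at 6.35, 8.61, 9.79, 5.95 and 2.62. The replicate 4 values of S100a8, Prg2 and Camp lay within the range of the controls, that of S100a9 lay below it (lowest control 9.02) and that of Lcn2 above it (highest control 6.62). Of the 18 macrophage and leukocyte genes, Cd53 (10.58), C1qa (11.46), Coro1a (9.73) and Tyrobp (11.10) were higher in replicate 4 than in any other array. Others of the list were lower in replicate 4 than in any control. They were Ptprc (7.54, lowest control 7.75), Lcp1 (10.04, 10.40), Mrc1 (9.26, 9.68), Aif1 (9.92, 10.21) and Fcer1g (11.17, 11.62). The rest lay within the range of the controls.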
